A study of Homo sapiens with 12 samples.

Results

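The 43 genes described here encode chaperones of the cytosol and the mitochondria outside the HSP70 family, with the factors and co-chaperones that work with them. They were chosen by name from the 54261 gene symbols of the deposited count table: 2 heat shock factors, 3 HSP90 chaperones, 5 HSP90 co-chaperones, HSP60 with its partner HSP10, 2 HSP110 proteins, 2 small heat shock proteins, 8 HSP40 (DNAJ) proteins, 8 subunits of the chaperonin CCT, 6 BAG proteins and 5 prefoldin subunits. Of these, 41 passed the filter on low counts and are among the 17572 genes tested. BAG6 and PFDN6 did not pass it. HSPB8 passed through the SW480 libraries, where its level was high.

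RNA was sequenced in 12 libraries from SW480 and DLD1, established cell lines of human colorectal cancer, to compare cells given lactate with cells that were not. The groups were DLD1 with lactate, DLD1 control, SW480 with lactate and SW480 control, with 3 libraries each, which the series' design text calls biological replicates. The labels name no genetic change and no agent other than lactate. The dose and time of treatment are not given in the labels. Whole-number counts per gene were deposited. Levels are given as CPM, counts per 1e6 counts, on library sizes scaled by TMM.

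Chaperones bind proteins that are not yet folded or have lost their fold. HSP70 with an HSP40 partner takes up a client first, HSP90 matures signalling proteins handed on by co-chaperones, the CCT ring folds actin and tubulin delivered by prefoldin, and HSP60 with HSP10 folds proteins imported into mitochondria. Under heat or proteotoxic stress, HSF1 binds repeats of the bases GAA and TTC in promoters of many of these genes and raises their transcription.

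Total counts ran from 12302311 to 22662063 per library. DLD1 control 2 and DLD1 control 3 stood apart from the other library of their group: when each library was set against the mean of its 2 partners on the log2 scale, the SD over genes was 0.537 and 0.442 for these libraries and at most 0.261 for the other 10, and the deviations tracked transcript GC content with Spearman's rho of -0.79 and 0.82, against -0.62 to 0.50 for the other 10. Results in DLD1 are therefore also given without these libraries. Of 8 epithelial markers, KRT8, KRT18 and KRT19 were present in both lines, at 572 to 4296 CPM in DLD1 and 93.2 to 1438 CPM in SW480. EPCAM, CDH1, CDX2, VIL1 and CDH17 lay between 7.87 and 873 CPM in DLD1, against 0 to 1.58 CPM in all 6 libraries labelled SW480. Of 4 fibroblast markers, DCN was at 0 to 0.201 CPM in DLD1 and 57.7 to 89.7 CPM in SW480, and COL1A1 at 1.72 to 2.57 CPM in DLD1 and 19.5 to 51.97 CPM in SW480. COL1A2 averaged under 1 CPM in each group, and PDGFRB averaged 3.50 CPM in DLD1 controls and 3.10 CPM in SW480 controls. The near absence of EPCAM and CDH1 and the presence of DCN go against the label of an epithelial line, and SW480 is used here as the name on these 6 libraries. The summed level of the 8 epithelial markers was 9319 to 10469 CPM in DLD1 with lactate and 6643 to 9402 CPM in DLD1 controls, and 1416 to 1750 CPM in SW480 with lactate and 1994 to 2345 CPM in SW480 controls. The 4 fibroblast markers summed to 7.62 to 9.40 CPM in DLD1 with lactate and 4.96 to 7.48 CPM in DLD1 controls, and to 110 to 134 CPM in SW480 with lactate and 105 to 115 CPM in SW480 controls. The 4 leukocyte markers summed to at most 7.04 CPM and the 3 endothelial markers to at most 4.05 CPM in any library. The part of these markers in the results was not tested. In bulk RNA, fewer cells of a type and less RNA per cell cannot be told apart.

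Most members were lower in cells given lactate than in control cells of the same line. In DLD1 the log2 fold change of lactate over control was below 0 for 31 of the 41 members (75.6%), against 46.3% of all genes tested. The median was -0.20 for the members and 0.02 for all genes. HSPB8, at 0 to 2 counts per library in DLD1, is among the 31, at log2 -0.11 ± 0.91 (SE). In SW480 the log2 fold change was below 0 for 32 of 41 members (78.0%), against 50.7% of all genes. The median was -0.22 for the members and -0.0061 for all genes. The summed level of the members was 11873 ± 389 CPM in DLD1 with lactate and 14191 ± 1150 CPM in DLD1 controls, and 8173 ± 23.1 CPM in SW480 with lactate and 9875 ± 567 CPM in SW480 controls (SD, n = 3 each).

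The lines differed in how many members passed the test. A gene is called where edgeR's quasi-likelihood test gave a Benjamini-Hochberg adjusted p under 0.05 over all genes tested. In DLD1, 0 of 41 members were called, where 0.381% of all genes were. At an unadjusted p under 0.05 there were 19 members in DLD1, 18 lower and DNAJB2 higher, beside 18.5% of all genes. DESeq2 called 8 members in DLD1, beside 3.89% of all genes (HSP90AA1, HSPD1, HSPH1, DNAJC7, CCT2, CCT6A and BAG2 lower, DNAJB2 higher), and limma-voom called 0, beside 0.427%. With DLD1 fitted without the libraries labelled SW480, edgeR called 0 members, beside 0.00654% of all genes. In SW480, 12 of 41 members were called, beside 12.4% of all genes, and 18 had an unadjusted p under 0.05, 17 lower and DNAJB2 higher, beside 27.3%. Of the 12 called, 11 fell with lactate, where 5.59% of all genes were called lower, and DNAJB2 rose, where 6.83% were called higher. The members that fell were STIP1, AHSA1, HSPD1, HSPE1, DNAJA1, CCT2, CCT3, CCT5, CCT6A, BAG1 and BAG2. DESeq2 and limma-voom each called 15 members in SW480, beside 16.1% of all genes by DESeq2 and 13.8% by limma-voom. Both called these 12 and also HSP90AA1, DNAJC7 and CCT7, which were lower. Markers of cell type moved in the same comparison and not in 1 direction. COL1A1 was called higher in SW480 with lactate, at 48.9 to 51.97 CPM against 19.5 to 23.5 CPM in controls, a log2 fold change of 1.23 ± 0.12 (edgeR adjusted p 6.52e-05, called under every alternative run), while DCN had -0.29 ± 0.13 and was not called. KRT8 and KRT18 were called lower, at -0.51 ± 0.14 and -0.61 ± 0.12, and KRT19 higher, at 0.71 ± 0.22. The KRT8 and KRT19 calls were lost when single libraries were left out, at edgeR adjusted p of up to 0.147 and 0.173.

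**Figure D1:**
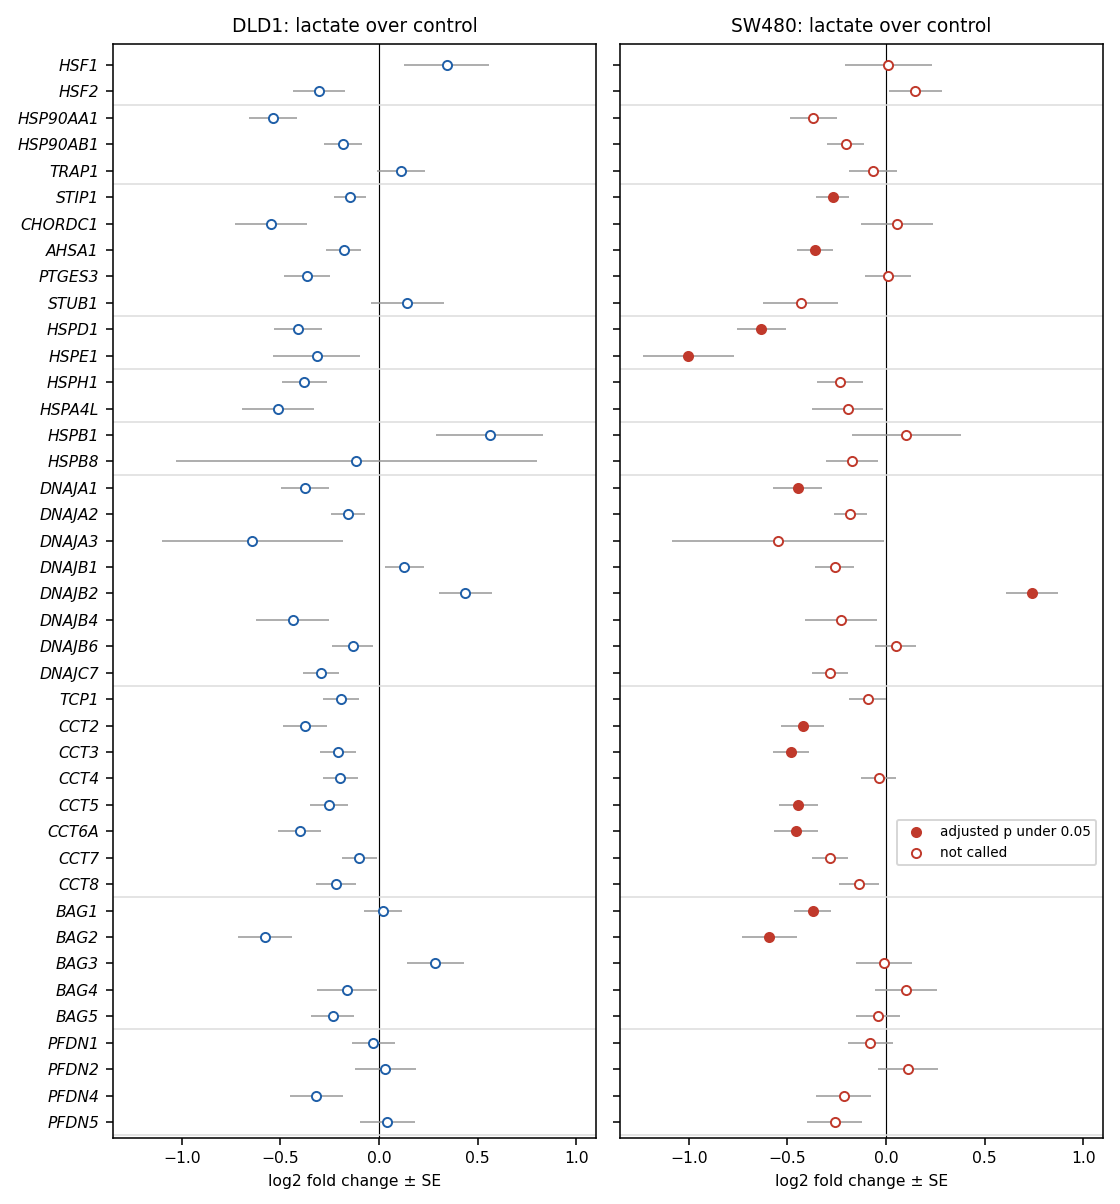
Log2 fold change of lactate over control ± SE for the 41 tested members in DLD1 (left) and SW480 (right), with filled points for members called at an adjusted p under 0.05 and grey lines between families. HSPB8 rests on 0 to 2 counts per library in DLD1. Most points lie left of 0 in both lines, 31 in DLD1 and 32 in SW480, and the 12 filled points are all in SW480, 11 of them left of 0.

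Group values that did not overlap were also more frequent on the lower side. In DLD1 all 3 lactate libraries lay below all 3 controls for 20 members, beside 9.04% of all genes, and above them for DNAJB2, beside 9.82%. In SW480 the lactate libraries lay below the controls for 22 members, beside 20.4% of all genes, and above them for HSF2 and DNAJB2, beside 20.6%. For 14 members (34.1%) the lactate libraries lay below the controls in both lines, which held for 3.47% of all genes: HSP90AA1, HSP90AB1, STIP1, AHSA1, HSPD1, HSPH1, DNAJA1, DNAJA2, DNAJC7, CCT2, CCT3, CCT5, CCT6A and BAG2. DNAJB2 was the member above the controls in both lines, as were 3.4% of all genes. Across the 41 members the fold changes of the 2 lines had a Pearson correlation of 0.51. Of the members, 26 (63.4%) were below 0 in both lines, as were 26.5% of all genes. HSPB8, at 0 to 2 counts per library in DLD1, is in this correlation and among the 26. Over all 17572 genes the Pearson correlation was 0.058. Spearman's rho was 0.44 for the members and 0.14 for all genes. These points share libraries and scaling within a line, so the values are a description.

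HSF1, the main activator of the heat shock response, lay at 51.5, 44.99 and 59.5 CPM in DLD1 with lactate, against 38.3, 25.2 and 59.3 CPM in DLD1 controls, and at 42.9, 40.02 and 36.3 CPM in SW480 with lactate, against 37.8, 39.6 and 40.9 CPM in SW480 controls. The groups overlapped in both lines, and its log2 fold changes of 0.34 ± 0.22 (SE) in DLD1 and 0.012 ± 0.22 in SW480 were not called. HSF2, a related factor, had log2 fold changes of -0.30 ± 0.13 and 0.15 ± 0.13, also not called.

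HSP90AA1, the stress-inducible cytosolic HSP90, had the lowest adjusted p of any member in DLD1. It lay at 2032, 2118 and 2138 CPM in DLD1 with lactate, against 3049, 3552 and 2525 CPM in DLD1 controls. In SW480 it lay at 866, 922 and 1009 CPM with lactate, against 1285, 1084 and 1244 CPM in controls. In both lines every lactate library lay below every control, with log2 fold changes of -0.54 ± 0.12 in DLD1 (edgeR adjusted p 0.0727) and -0.37 ± 0.12 in SW480 (edgeR adjusted p 0.0576), neither of which was called. HSP90AB1, the constitutive cytosolic HSP90, lay at 2225, 2319 and 2344 CPM in DLD1 with lactate, against 2616, 2819 and 2385 CPM in DLD1 controls, and at 1567, 1538 and 1397 CPM in SW480 with lactate, against 1827, 1604 and 1761 CPM in SW480 controls. Its groups were also apart in both lines, by log2 -0.18 ± 0.095 in DLD1 and -0.21 ± 0.095 in SW480, and neither difference was called. TRAP1, the mitochondrial HSP90, had log2 fold changes of 0.11 ± 0.12 and -0.068 ± 0.12 in DLD1 and SW480, with overlapping groups.

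The ratio of HSP90AA1 to HSP90AB1 counts does not depend on the scaling of a library. On the log2 scale it was -0.13 in each DLD1 lactate library, against 0.22, 0.33 and 0.08 in DLD1 controls 1 to 3. In SW480 it was -0.86, -0.74 and -0.47 in the lactate libraries, against -0.51, -0.56 and -0.50 in the controls. The ratio was lower in every DLD1 lactate library than in any DLD1 control, and the SW480 groups overlapped. Transcript GC content was 43.0% for HSP90AA1 and 48.1% for HSP90AB1, and DLD1 controls 2 and 3, which tracked GC content in opposite directions, had the highest and the lowest ratio of the controls. The part of GC content in this ratio was not tested.

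Promoters were searched for the heat shock element, the binding motif of HSF1. Of the 6 members that hold it, 4 are shown. HSP90AB1 and DNAJB6, which are not shown, had the smallest fold changes of the 6 in DLD1. The motif searched was GAANNTTCNNGAA, 3 alternating units of GAA and its complement, on both strands, in RefSeq windows of GRCh38.p14 from 250 bases before to 50 after a gene's start. It was in a window of 6 of the 38 members that have one (15.8%), beside 0.608% of 27305 genes: HSP90AA1, HSP90AB1, HSPD1, DNAJA1, DNAJB6 and CHORDC1. The 2-unit form GAANNTTC, which is contained in the longer motif, was in 17 of the 38 (44.7%), beside 16.2% of genes. The E-box CACGTG was in 3 of the 38 (7.89%), beside 8.77% of genes. The windows of HSP90AA1 (chr14:102086995-102087294, minus strand), HSPD1 (chr2:197499791-197500090, minus strand), DNAJA1 (chr9:33025023-33025322, plus strand) and CHORDC1 (chr11:90223000-90223299, minus strand) are shown, with that of HSPA6 (chr1:161524290-161524589, plus strand), an HSP70 gene outside the 43 that carries the same motif and had a higher level with lactate in both lines. Each is 5′ to 3′ on the strand of the gene, with capitals for the motif.
HSP90AA1: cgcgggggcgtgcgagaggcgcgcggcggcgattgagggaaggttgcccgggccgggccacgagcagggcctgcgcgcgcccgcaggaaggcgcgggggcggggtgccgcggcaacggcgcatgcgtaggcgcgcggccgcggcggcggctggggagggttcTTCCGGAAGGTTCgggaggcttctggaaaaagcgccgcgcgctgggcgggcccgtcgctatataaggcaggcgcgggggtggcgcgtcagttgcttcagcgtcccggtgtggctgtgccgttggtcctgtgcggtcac
HSPD1: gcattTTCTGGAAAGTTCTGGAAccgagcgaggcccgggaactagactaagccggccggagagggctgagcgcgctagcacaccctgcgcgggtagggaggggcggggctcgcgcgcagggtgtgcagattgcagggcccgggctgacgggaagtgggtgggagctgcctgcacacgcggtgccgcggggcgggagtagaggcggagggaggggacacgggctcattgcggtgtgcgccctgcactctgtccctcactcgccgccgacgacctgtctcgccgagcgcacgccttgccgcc
DNAJA1: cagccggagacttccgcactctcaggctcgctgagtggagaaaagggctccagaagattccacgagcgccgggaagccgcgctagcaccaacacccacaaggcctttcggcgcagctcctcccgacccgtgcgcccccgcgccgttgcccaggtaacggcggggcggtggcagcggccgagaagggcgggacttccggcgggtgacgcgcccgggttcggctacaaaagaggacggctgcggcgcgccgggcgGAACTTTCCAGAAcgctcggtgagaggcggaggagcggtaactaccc
CHORDC1: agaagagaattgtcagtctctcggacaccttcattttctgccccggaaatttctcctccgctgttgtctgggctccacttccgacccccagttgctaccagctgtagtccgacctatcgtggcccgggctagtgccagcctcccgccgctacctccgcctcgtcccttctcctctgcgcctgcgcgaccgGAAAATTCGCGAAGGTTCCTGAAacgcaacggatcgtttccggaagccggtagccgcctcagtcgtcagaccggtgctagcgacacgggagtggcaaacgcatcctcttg
HSPA6: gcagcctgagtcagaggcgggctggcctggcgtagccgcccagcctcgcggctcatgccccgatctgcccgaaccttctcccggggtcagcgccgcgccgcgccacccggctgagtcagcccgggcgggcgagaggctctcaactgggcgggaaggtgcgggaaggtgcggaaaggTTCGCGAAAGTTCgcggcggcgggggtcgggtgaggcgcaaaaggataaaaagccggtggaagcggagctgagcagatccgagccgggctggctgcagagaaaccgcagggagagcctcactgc
Distances are counted from the start that each window shown was built on. The motif began 88 bases before that start in HSP90AA1, 245 and 240 before it in HSPD1 and 60, 55 and 50 before it in CHORDC1. It began 74 before it in HSPA6 and 3 after it in DNAJA1, and it overlapped itself in HSPD1 and CHORDC1. The windows shown for HSP90AA1 and HSPD1 belong to inner starts, so their motifs lie within the annotated genes. Their windows at the outer start (chr14:102139700-102139999 and chr2:197500225-197500524) lack the motif. HSP90AB1 also held it only at an inner start. The 6 members with the motif had log2 fold changes in DLD1 of -0.54 (HSP90AA1), -0.18 (HSP90AB1), -0.41 (HSPD1), -0.37 (DNAJA1), -0.13 (DNAJB6) and -0.55 (CHORDC1). In SW480 the values were -0.37, -0.21, -0.63, -0.45, 0.048 and 0.055 in the same order. HSPA6 rose to 40.7 ± 13.2 CPM in DLD1 with lactate, against 0.589 ± 0.227 CPM in DLD1 controls, and to 39.9 ± 3.26 CPM in SW480 with lactate, against 0.402 ± 0.0643 CPM in SW480 controls (SD, n = 3 each). Its log2 fold changes were 6.04 ± 0.28 and 6.59 ± 0.31, with edgeR adjusted p of 4.0e-08 and 4.7e-08. The fold changes of the genes named here were of either sign. HSPA6 was chosen with its rise known, and the 59 tested genes with the motif were not read as a set. The part of the motif in these fold changes was not tested. A match of letters is not a measured binding site.

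STIP1 joins HSP70 to HSP90 and AHSA1 stimulates the ATPase of HSP90, and both fell in SW480. STIP1 lay at 332, 339 and 362 CPM in DLD1 with lactate, against 391, 369.8 and 383 CPM in DLD1 controls, and at 197, 199 and 199.9 CPM in SW480 with lactate, against 253, 229 and 237 CPM in SW480 controls. AHSA1 lay at 132, 132 and 140.2 CPM in DLD1 with lactate, against 159, 141 and 158 CPM in DLD1 controls, and at 112, 109.9 and 105 CPM in SW480 with lactate, against 149.5, 132 and 138 CPM in SW480 controls. Neither gene's groups overlapped in either line. In SW480 the log2 fold changes were -0.27 ± 0.083 for STIP1 (edgeR adjusted p 0.0469) and -0.36 ± 0.091 for AHSA1 (edgeR adjusted p 0.0187). In DLD1 they were -0.15 ± 0.083 and -0.18 ± 0.09 and were not called. The STIP1 call was at the threshold: its edgeR adjusted p was 0.0636 to 0.211 when any of 10 libraries was left out, and it stayed under 0.05 without DLD1 control 2 or DLD1 control 3. AHSA1 lost its call without SW480 lactate 1, 2 or 3 or control 1 or 3, with edgeR adjusted p of 0.0574 to 0.118. The STIP1 call was also lost with median-of-ratios scaling (0.0638), a replicate block (0.094) and no filter (0.195), and that of AHSA1 with no filter (0.0538). The other 3 co-chaperones were not called in either line. CHORDC1 had log2 fold changes of -0.55 ± 0.18 in DLD1 and 0.055 ± 0.18 in SW480, PTGES3 (p23, which holds HSP90 closed on its client) of -0.37 ± 0.12 and 0.0096 ± 0.12, and STUB1 (CHIP, the ubiquitin ligase of chaperone-bound proteins) of 0.14 ± 0.19 and -0.43 ± 0.19.

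Both genes of the mitochondrial folding chamber fell in SW480. HSPD1 (HSP60), at chromosome 2, 197486584 to 197500274 on GRCh38.p14, lay at 770.1, 844 and 830.0 CPM in DLD1 with lactate, against 1076, 1295 and 879 CPM in DLD1 controls, and at 517, 522 and 512 CPM in SW480 with lactate, against 854, 716 and 837 CPM in SW480 controls. Every lactate library lay below every control of its line, and the 3 SW480 lactate libraries were nearly equal. The SW480 level was 1.55-fold lower with lactate, a log2 fold change of -0.63 ± 0.12 (edgeR adjusted p 0.00489, at most 0.0353 when any 1 library was left out). In DLD1 the log2 fold change of -0.41 ± 0.12 was not called (edgeR adjusted p 0.148). HSPE1 (HSP10), the lid of the chamber, starts beside HSPD1 on the opposite strand, at 197500379. It lay at 9.23, 15.3 and 12.2 CPM in DLD1 with lactate, against 13.9, 13.5 and 18.3 CPM in DLD1 controls, and at 8.59, 10.1 and 7.42 CPM in SW480 with lactate, against 20.8, 19.96 and 11.97 CPM in SW480 controls. The groups overlapped in DLD1 and did not in SW480, where HSPE1 was 2.01-fold lower, a log2 fold change of -1.003 ± 0.23 (edgeR adjusted p 0.0117). Without SW480 lactate 3 or SW480 control 1 this call was lost, at edgeR adjusted p of 0.0577 and 0.0804. The HSPE1 value is uncertain: it rests on 2784 counts over the 12 libraries, against 169244 for HSPD1, 26 rows of the table are HSPE1 pseudogenes that hold 27.7% as many counts, and the gene overlaps HSPD1 and a readthrough gene, HSPE1-MOB4, which is listed at 0. The log2 ratio of HSPD1 to HSPE1 counts was 6.09 ± 0.30 in DLD1 with lactate and 6.15 ± 0.51 in DLD1 controls, and 5.90 ± 0.21 in SW480 with lactate and 5.55 ± 0.51 in SW480 controls (SD, n = 3 each), with overlapping groups.

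HSPH1, which exchanges nucleotide on HSP70, lay at 219, 230.4 and 225 CPM in DLD1 with lactate, against 279, 352 and 245 CPM in DLD1 controls, and at 142, 145 and 154 CPM in SW480 with lactate, against 179, 163 and 176 CPM in SW480 controls. The groups did not overlap in either line, and the log2 fold changes of -0.38 ± 0.12 and -0.23 ± 0.12 were not called. HSPA4L, of the same family, had log2 fold changes of -0.51 ± 0.18 and -0.19 ± 0.18, not called. HSPB1 (HSP27), which holds unfolded proteins in solution, lay at 529.5, 393 and 521 CPM in DLD1 with lactate, against 353, 155 and 469.8 CPM in DLD1 controls. In SW480 it lay at 97.4, 92.2 and 72.5 CPM with lactate, against 84.4, 81.2 and 78.6 CPM in controls. DLD1 control 2 was low and DLD1 control 3 high. Control 3 lay above DLD1 lactate 2, so that the DLD1 groups overlapped. The SW480 groups overlapped as well, and the log2 fold changes of 0.56 ± 0.27 and 0.10 ± 0.27 were not called. HSPB8, which works with BAG3, had 0 to 2 counts per library in DLD1 and a log2 fold change in SW480 of -0.17 ± 0.13, not called.

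Among the 8 HSP40 proteins, DNAJA1 fell and DNAJB2 rose in SW480, and the other 6 were not called. DNAJA1, a main cytosolic partner of HSP70, lay at 189, 192 and 190.4 CPM in DLD1 with lactate, against 248, 285 and 207 CPM in DLD1 controls, and at 113, 114 and 127 CPM in SW480 with lactate, against 183, 141 and 159.9 CPM in SW480 controls. The lactate libraries lay below the controls in both lines. The log2 fold change in SW480 was -0.45 ± 0.12 (edgeR adjusted p 0.028), and the call was lost without SW480 lactate 1, 2 or 3 or control 1 or 3, at edgeR adjusted p of 0.0566 to 0.164. In DLD1 it was -0.37 ± 0.12, not called. DNAJB2, a J protein that binds ubiquitin and helps direct clients to the proteasome, lay at 40.7, 39.3 and 39.4 CPM in DLD1 with lactate, against 27.8, 23.5 and 36.8 CPM in DLD1 controls, and at 61.95, 68.6 and 66.4 CPM in SW480 with lactate, against 38.5, 39.2 and 40.4 CPM in SW480 controls. Every lactate library lay above every control in both lines. The level was 1.67-fold higher with lactate in SW480, a log2 fold change of 0.74 ± 0.13 (edgeR adjusted p 0.003, at most 0.0267 when any 1 library was left out). In DLD1 the log2 fold change of 0.44 ± 0.13 was not called (edgeR adjusted p 0.15).

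DNAJB1, the stress-inducible partner of HSP70, lay at 190.3, 187 and 196 CPM in DLD1 with lactate, against 172, 156 and 197 CPM in DLD1 controls, and at 86.2, 82.4 and 79.7 CPM in SW480 with lactate, against 105, 93.1 and 98.96 CPM in SW480 controls. The groups overlapped in DLD1, where the log2 fold change was 0.13 ± 0.098, and the lactate libraries lay below the controls in SW480, where it was -0.26 ± 0.10. Neither was called. The log2 ratio of DNAJB1 to DNAJA1 counts was 0.01, -0.04 and 0.04 in the DLD1 lactate libraries, against -0.53, -0.87 and -0.08 in DLD1 controls, and -0.39, -0.47 and -0.67 in the SW480 lactate libraries, against -0.79, -0.59 and -0.69 in SW480 controls. It was higher in each DLD1 lactate library than in any DLD1 control, and the SW480 groups overlapped. Transcript GC content was 53.05% for DNAJB1 and 41.7% for DNAJA1, and DLD1 controls 2 and 3 had the lowest and the highest ratio of the controls. The part of GC content was not tested here either. DNAJA2, a cytosolic partner of HSP70, and DNAJC7, which binds both HSP70 and HSP90, were lower without overlap in both lines, with log2 fold changes of -0.16 ± 0.085 and -0.29 ± 0.092 in DLD1 and -0.18 ± 0.085 and -0.28 ± 0.093 in SW480, none of them called. DNAJB4, DNAJB6 and the mitochondrial DNAJA3 had overlapping groups in both lines. DNAJA3 was at 0.262 to 2.06 CPM in the 12 libraries, so its fold changes are imprecise.

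**Figure D2:**
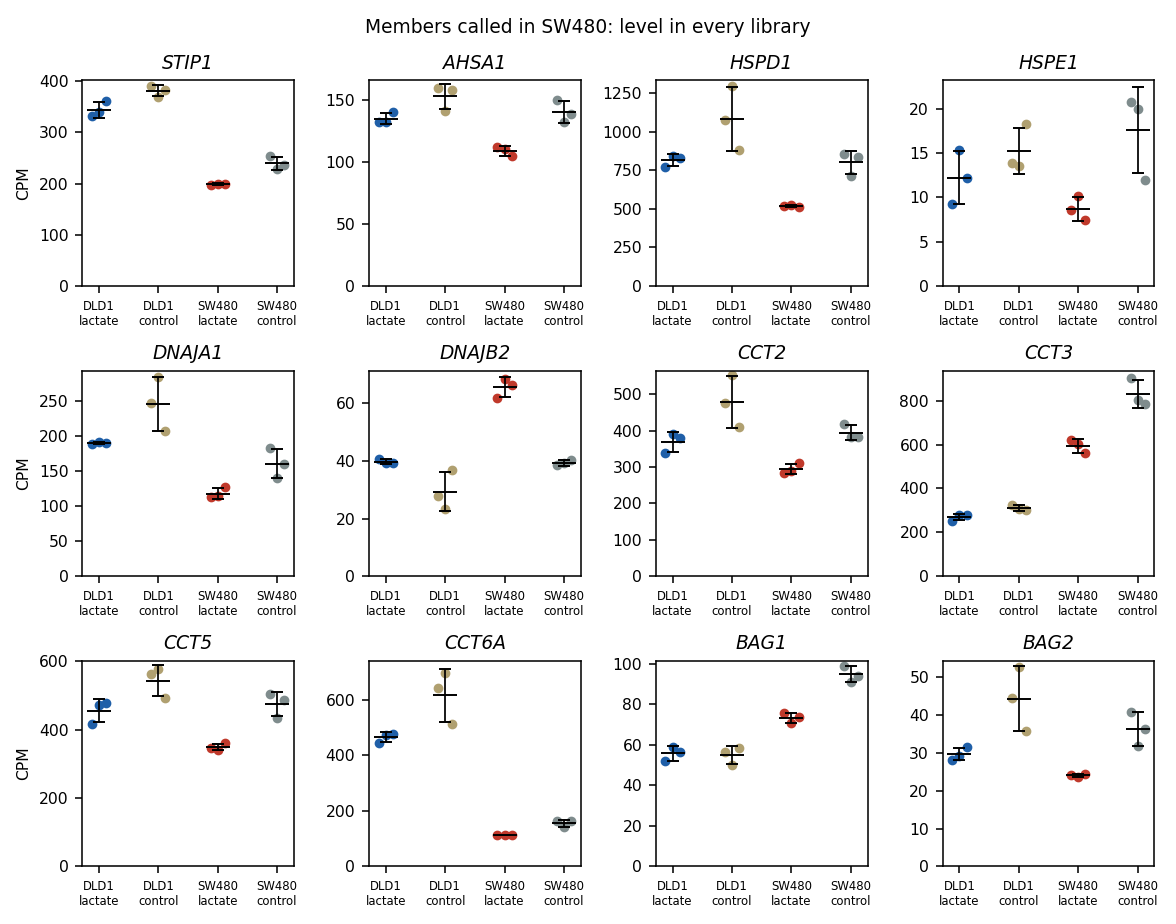
Level in CPM of the 12 members called in SW480, in each library of the 4 groups, with points for libraries and bars for mean ± SD of 3 libraries. In SW480 the lactate points lie below the control points in 11 panels and above them in the DNAJB2 panel. In DLD1 the SD of the controls is larger than that of the lactate libraries in every panel but STIP1, HSPE1 and CCT3.

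All 8 subunits of CCT, the ring that folds actin and tubulin, had log2 fold changes below 0 in both lines, from -0.40 to -0.10 in DLD1 and from -0.48 to -0.038 in SW480, and CCT2, CCT3, CCT5 and CCT6A fell in SW480. CCT2 lay at 338, 390.0 and 381 CPM in DLD1 with lactate, against 477, 552 and 409.9 CPM in DLD1 controls, and at 283, 288 and 309.8 CPM in SW480 with lactate, against 417, 383 and 381 CPM in SW480 controls. CCT3 lay at 253, 278 and 277 CPM in DLD1 with lactate, against 326, 307 and 300.0 CPM in DLD1 controls, and at 619.5, 603 and 559 CPM in SW480 with lactate, against 905, 802 and 785 CPM in SW480 controls. For both genes the lactate libraries lay below the controls in each line. CCT5 lay at 416, 472 and 477 CPM in DLD1 with lactate, against 561, 577 and 491 CPM in DLD1 controls, and at 347, 340.3 and 359.7 CPM in SW480 with lactate, against 505, 435 and 485 CPM in SW480 controls. CCT6A lay at 446, 475 and 478 CPM in DLD1 with lactate, against 641, 695 and 512 CPM in DLD1 controls, and at 114, 114 and 114 CPM in SW480 with lactate, against 164, 142 and 162 CPM in SW480 controls. These groups were apart in both lines as well, and the 3 SW480 lactate libraries gave nearly the same CCT6A level.

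In SW480 the log2 fold changes were -0.48 ± 0.092 for CCT3, -0.46 ± 0.11 for CCT6A, -0.44 ± 0.098 for CCT5 and -0.42 ± 0.11 for CCT2, with edgeR adjusted p of 0.00408, 0.0164, 0.0095 and 0.0224. CCT3 was called whichever library was left out, with an edgeR adjusted p of at most 0.0352. CCT5 was lost without SW480 lactate 2 or SW480 control 1, at 0.0674 and 0.0646. CCT2 and CCT6A were lost without SW480 lactate 1, 2 or 3 or control 1 or 3, at edgeR adjusted p of 0.0528 to 0.114 and 0.0586 to 0.0882. CCT7 missed the threshold in SW480 at log2 -0.28 ± 0.089 (edgeR adjusted p 0.0516), and TCP1, CCT4 and CCT8 were not called. The summed level of the 8 subunits was 3378 ± 196 CPM in DLD1 with lactate and 4000 ± 291 CPM in DLD1 controls, and 2640 ± 33.7 CPM in SW480 with lactate and 3281 ± 171 CPM in SW480 controls (SD, n = 3 each).

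Per kilobase of transcript the subunits, which join the ring in equal numbers, were at unequal RNA levels. In DLD1 controls the highest was CCT7 at 287 ± 19.01 CPM per kb and the lowest CCT3 at 145 ± 6.30, a ratio of 1.99. In SW480 controls the highest was CCT3 at 386 ± 30.1 CPM per kb and the lowest CCT6A at 57.4 ± 4.59, a ratio of 6.73. CCT3 was thus last in DLD1 controls and first in SW480 controls. With lactate, CCT5 (124 CPM per kb) lay just below CCT3 (125 CPM per kb) in DLD1, and CCT3 was first in SW480. In DLD1 controls CCT3 and CCT5 (148 ± 12.4 CPM per kb), and CCT2 (235 ± 34.7) and CCT6A (227 ± 34.7), differed by less than their spread. A single transcript length per gene was used, and it may not be that of the isoform present.

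**Figure D3:**
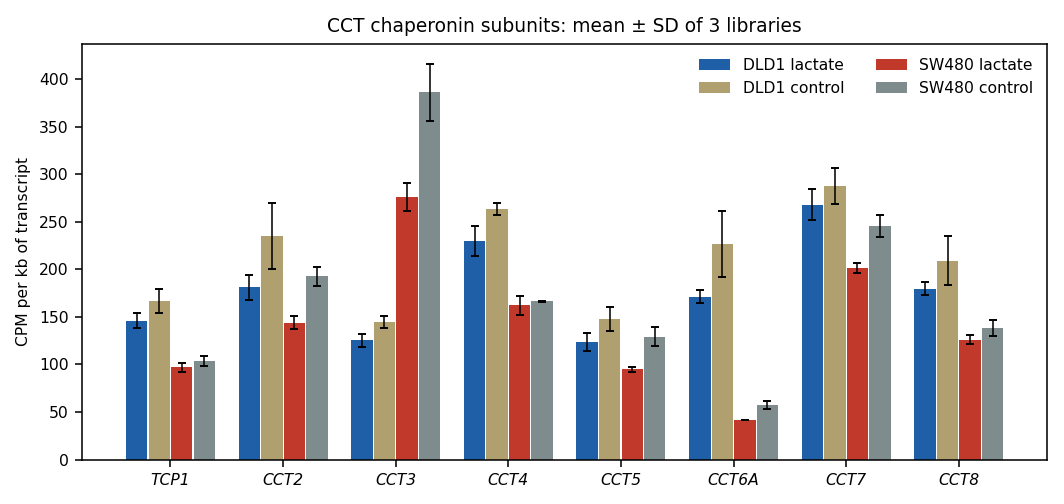
Level of the 8 CCT subunits in CPM per kb of transcript in the 4 groups, with bars for the mean and error bars for the SD of 3 libraries. CCT3 is the tallest set of SW480 bars and CCT6A the shortest, with 386 and 57.4 CPM per kb in SW480 controls, and the lactate bar is below the control bar of its line for all 8 subunits.

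BAG1 and BAG2, both of which exchange nucleotide on HSP70, fell in SW480. BAG1 lay at 51.9, 59.00 and 56.5 CPM in DLD1 with lactate, against 56.6, 49.97 and 58.4 CPM in DLD1 controls, and at 75.6, 70.5 and 73.5 CPM in SW480 with lactate, against 98.99, 91.1 and 94.2 CPM in SW480 controls. BAG2 lay at 28.3, 29.3 and 31.4 CPM in DLD1 with lactate, against 44.5, 52.8 and 35.7 CPM in DLD1 controls, and at 24.1, 23.6 and 24.5 CPM in SW480 with lactate, against 40.8, 31.9 and 36.2 CPM in SW480 controls. The BAG1 groups overlapped in DLD1 and were apart in SW480, and the BAG2 groups were apart in both lines. In SW480 the log2 fold changes were -0.37 ± 0.096 for BAG1 (edgeR adjusted p 0.021) and -0.59 ± 0.14 for BAG2 (edgeR adjusted p 0.0137). BAG1 was lost without SW480 lactate 1, 2 or 3 or control 1 or 3, at edgeR adjusted p of 0.0606 to 0.126, and with no filter (0.0598), and BAG2 without SW480 lactate 2 or SW480 control 1, at 0.0736 and 0.0894. In DLD1 the log2 fold changes were 0.021 ± 0.096 for BAG1 and -0.58 ± 0.14 for BAG2 (edgeR adjusted p 0.0947), not called. BAG3, which directs aggregated proteins to autophagy, lay at 104, 83.4 and 91.02 CPM in DLD1 with lactate, against 74.3, 59.5 and 94.6 CPM in DLD1 controls, and at 114, 115 and 104 CPM in SW480 with lactate, against 112, 104 and 119.5 CPM in SW480 controls, with overlapping groups and no call. BAG4 and BAG5 had log2 fold changes of -0.16 ± 0.15 and -0.23 ± 0.11 in DLD1 and 0.10 ± 0.16 and -0.04 ± 0.11 in SW480, not called. Of 4 tested prefoldin subunits (PFDN1, PFDN2, PFDN4 and PFDN5), 0 were called in either line by edgeR, DESeq2 or limma-voom, with log2 fold changes of -0.32 to 0.042 in DLD1 and -0.26 to 0.11 in SW480. At an unadjusted p under 0.05 there were 1 of them in DLD1 and 0 in SW480.

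The number of members called in SW480 depended on single SW480 libraries: it was 3 without control 1 (beside 3.83% of all genes), 4 without lactate 2 (4.75%), 5 without lactate 3 (6.7%), 6 without lactate 1 (9.46%) and 6 without control 3 (6.76%). It was 21, beside 28% of all genes, when the trend of each library along GC content and length was removed.

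In DLD1 the fold changes of the members followed the GC content of their transcripts, with Spearman's rho of 0.73 across the 41 members, against -0.013 in SW480. Genes in general did so too: over 12028 genes with a GC value and a mean log2 CPM of at least 1, rho was 0.695 in DLD1 and 0.032 in SW480. The members' median GC content was 44.7%, against 48.8% over the tested genes with a value. Without DLD1 control 3, 20 members were called in DLD1, 16 lower and 4 higher (HSF1, HSPB1, DNAJB2 and BAG3), beside 21% of all genes. Without DLD1 control 2, 0 were called, beside 0.823% of all genes. Without both, 6 were called, beside 3.1%: HSP90AA1, HSPD1, CCT2, CCT6A and BAG2 lower and DNAJB2 higher. That fit has 1 DLD1 control library, which is assumed to vary like the other groups. With the GC and length trend removed, 3 were called lower, beside 3.02%: HSP90AA1 (edgeR adjusted p 0.00838), DNAJC7 (0.034) and CCT6A (0.0488). The median over the 41 members was then -0.10, with 28 below 0 and a rho of 0.18 with GC content. A response to lactate that itself tracks GC content would be taken out with the trend.

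**Figure D4:**
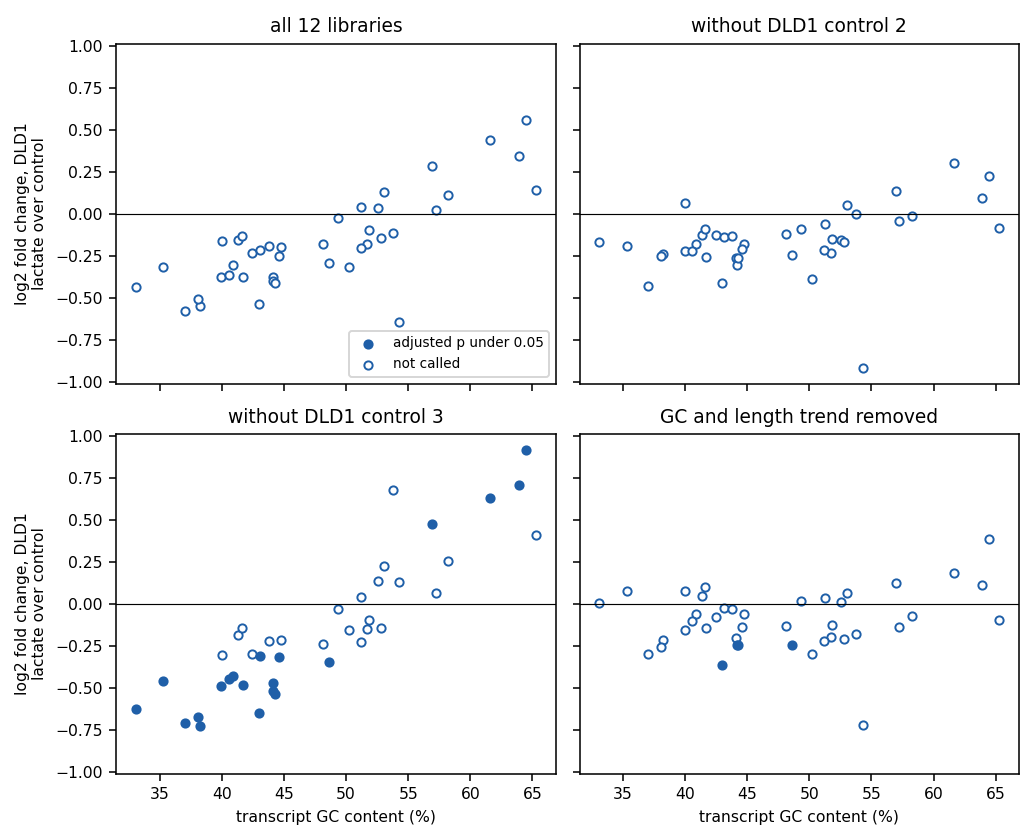
Log2 fold change of lactate over control in DLD1 against transcript GC content (%) for the 41 tested members, with all 12 libraries, without DLD1 control 2, without DLD1 control 3 and with the GC and length trend removed, filled where the adjusted p is under 0.05. Spearman's rho is 0.73 with all libraries, 0.50 without DLD1 control 2 (0 filled points), 0.87 without DLD1 control 3 (20 filled points) and 0.18 with the trend removed (3 filled points).

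The effect of lactate in DLD1 minus that in SW480 was tested directly. By edgeR 0 of 41 members were called, beside 0.728% of all genes, and DESeq2 and limma-voom also called 0, where they called 4.05% and 0.535% of all genes. At an unadjusted p under 0.05 there were 7 members, beside 16.8% of all genes: STUB1, HSPE1, DNAJB1 and BAG1, whose effect was higher in DLD1, and HSF2, CHORDC1 and PTGES3, whose effect was lower in DLD1. The difference of log2 fold changes was 0.39 ± 0.14 for DNAJB1, 0.39 ± 0.14 for BAG1 and -0.60 ± 0.26 for CHORDC1. Without DLD1 control 3, DNAJB1 and STUB1 were called higher and CHORDC1 and HSF2 lower, beside 8.35% of all genes. With the GC and length trend removed, DNAJB1 and STUB1 were called higher and DNAJB2 lower, beside 8.02%. The calls in SW480 and their absence in DLD1 therefore do not show that the lines responded differently.

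Between the untreated lines, 29 of 41 members were called, beside 70.8% of all genes, with 20 higher in DLD1, beside 33.6%, and 9 lower in DLD1, beside 37.3%. The groups did not overlap for 25 members, beside 70.4% of all genes. HSPB8, which passed the filter through SW480, is among the 9; without it 28 of 40 were called, 8 of them lower in DLD1, and 24 did not overlap. The share of members called in either direction was near that of all genes, and the share without overlap was below it. By direction, 48.8% of the 41 members were called higher in DLD1, above the share of all genes, and 22% lower, below it. HSPB1 was 326 ± 159 CPM in DLD1 controls and 81.4 ± 2.86 CPM in SW480 controls (SD, n = 3 each), a log2 fold change of 2.00 ± 0.28. CCT6A was 616 ± 94.4 CPM in DLD1 controls and 156 ± 12.5 CPM in SW480 controls, a log2 fold change of 1.98 ± 0.11, and HSP90AA1 was 3042 ± 513 and 1204 ± 106 CPM, a log2 fold change of 1.34 ± 0.12. In the other direction, CCT3 was 311 ± 13.5 CPM in DLD1 controls and 830.4 ± 64.7 CPM in SW480 controls, a log2 fold change of -1.42 ± 0.093. PFDN2 had a log2 fold change of -1.27 ± 0.16 and BAG1 of -0.78 ± 0.097. These 6 genes were apart without overlap between the lines and stayed called by edgeR whichever library was left out. HSPB8 had 0, 1 and 2 counts in DLD1 controls, against 1221, 873 and 1305 in SW480 controls, a ratio per total count of 0.000734 (exact 95% counting interval 0.000151 to 0.00215). HSF1, HSF2, TRAP1 and DNAJC7 had log2 fold changes between 0.034 and 0.083 and were not called. With the GC and length trend removed, TRAP1 turned direction and was called lower in DLD1, at log2 -0.18 ± 0.057 (edgeR adjusted p 0.00665). The gap in epithelial markers, DCN and COL1A1 between the lines stands beside these values, and line and culture history cannot be told apart.

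**Figure D5:**
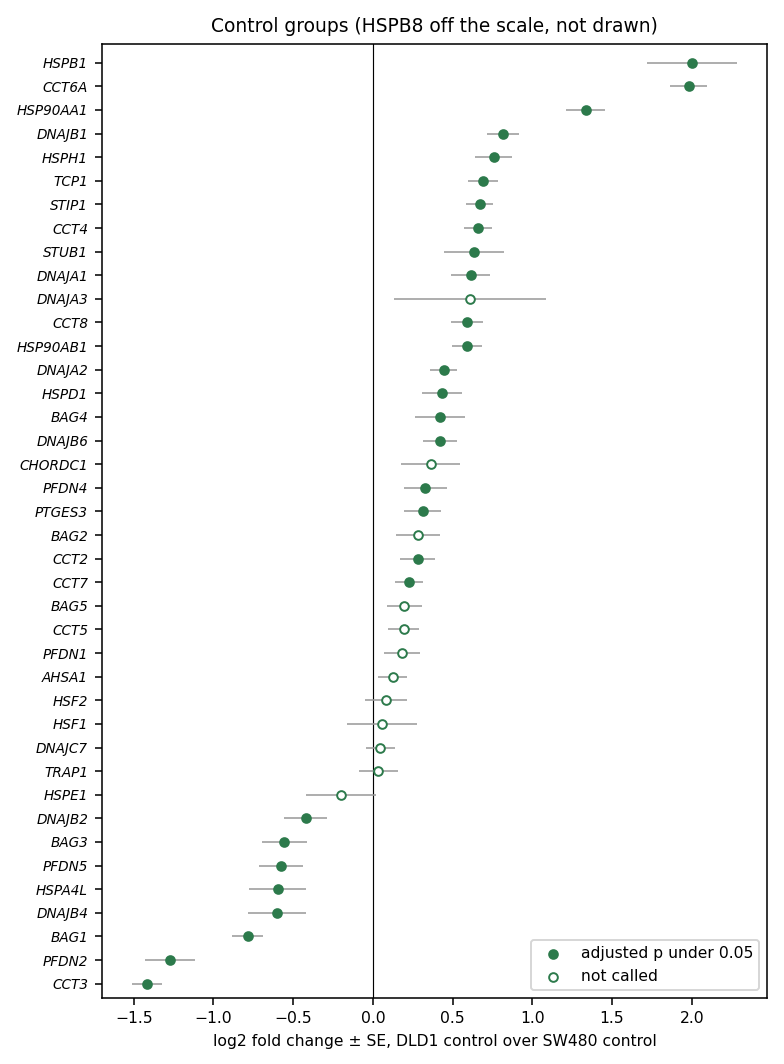
Log2 fold change ± SE of DLD1 control over SW480 control for 40 tested members, sorted, with filled points for members called at an adjusted p under 0.05; HSPB8, near 0 counts in DLD1, is not drawn. HSPB1, CCT6A and HSP90AA1 lie farthest to the right, at 2.00, 1.98 and 1.34, and CCT3 and PFDN2 farthest to the left, at -1.42 and -1.27.

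Beside the members, 6 lists of 109 related genes were read. Over all genes tested, edgeR called 12.4% in SW480 and 0.381% in DLD1. Of 9 tested HSP70 genes, HSPA6 and HSPA2 were called higher in SW480 and HSPA6 in DLD1. HSPA8, the constitutive HSP70, had log2 fold changes of -0.45 in DLD1 and -0.20 in SW480 and was not called by edgeR, while DESeq2 and limma-voom called it lower in DLD1. HSPA1A and HSPA1B held 4 and 295 counts over all 12 libraries. How the authors' counting treated these genes is not given in the sources used here, so the low counts are not read as absence of RNA. Of 20 tested HSP90 cofactors, RUVBL1 was called lower in SW480 at log2 -0.63 ± 0.10 and FNIP2 higher at 0.57 ± 0.16. Of 18 other DNAJ genes, DNAJB5 and DNAJC14 were called higher in SW480, at log2 1.21 ± 0.25 and 0.40 ± 0.091. Of 11 other small heat shock genes and HSF regulators, HSPB11 was called lower in SW480, and CRYAB (alpha B crystallin) was called higher in both lines. With each line fitted alone its DLD1 call was lost (edgeR adjusted p 0.0537), and DESeq2 gave it no adjusted p in DLD1. CRYAB had 80, 66 and 38 counts in the DLD1 lactate libraries, against 1, 1 and 1 in DLD1 controls, a ratio per total count of 56.8 (exact 95% counting interval 19.1 to 278). Of 18 genes of mitochondrial folding, import and proteolysis, DNAJC15 was called lower in SW480, at log2 -0.45 ± 0.098. Of 20 tubulins, actins and their folding factors, which CCT and prefoldin serve, 4 were called lower in SW480, with TUBB4B, TUBA1B and TUBA1C at log2 -0.72, -0.61 and -0.47, and ACTB was called higher at 0.75. By edgeR, 0 genes of the HSP90 cofactor, DNAJ, mitochondrial and tubulin lists were called in DLD1. At an unadjusted p under 0.05 there were 5, 5, 2 and 4 of them, beside 18.5% of all genes. DESeq2 called 1, 2, 0 and 2 of them in DLD1, beside 3.89% of all genes, and limma-voom called 0, beside 0.427%. The SW480 calls of HSPA6, RUVBL1, CRYAB and TUBA1B held whichever library was left out. Those of HSPA2, FNIP2, DNAJB5, DNAJC14, HSPB11, DNAJC15, TUBA1C, TUBB4B and ACTB were lost without SW480 control 1, at edgeR adjusted p of 0.0518 to 0.136. HSPA2, FNIP2, DNAJC14, HSPB11, TUBA1C and TUBB4B were also lost without 1 or more of the other 5 SW480 libraries, at 0.0502 to 0.110.

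The deposited counts do not say whether the strand was used. By GENCODE v29, 21 of the 43 members overlap another protein-coding gene, 2 of them on the same strand, so reads of the overlap cannot be told apart. Pseudogene rows held 2.93% as many counts as HSPD1, 2.74% as many as CCT6A, 2.54% as many as PTGES3, 1.75% as many as HSP90AA1 and 0.842% as many as HSP90AB1.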

How the data were processed

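RNA was sequenced in 12 libraries, 3 in each of 4 groups. The authors deposited whole-number read counts per gene symbol, with no normalization, in 1 table with 1 column per library. Each column was matched to its sample by title. The submitters' processing notes name HISAT2 and GRCh38. No version, counting tool, annotation or strand setting is given in the sources used here.

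The analysis used edgeR 4.0.16 in R 4.3.3. filterByExpr, given the groups, kept 17572 genes, and library sizes were scaled by TMM. The quasi-likelihood fit, with robust estimation, took all 12 libraries with a mean for each group (8 residual degrees of freedom), and two-sided tests were adjusted by Benjamini-Hochberg over all genes tested. A gene is called at an adjusted p under 0.05. SE was obtained by dividing the size of the log2 fold change by the root of the F statistic. The tests were checked on simulated counts, which held no GC trend and no difference between the control groups. That check therefore does not cover libraries that track GC content. Gene positions come from RefSeq (GRCh38.p14). Transcript lengths and GC content are those of a representative GENCODE v29 transcript. Promoter windows are from RefSeq, and 38 of the 43 members matched. Intervals cover counting error only.

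The 43 members, the other lists and the tests were chosen with earlier results of these data known. Values in every library are given for each member called in a lactate comparison or in the difference between lines, and for HSF1, HSP90AA1, HSP90AB1, HSPH1, DNAJB1, HSPB1, BAG3, HSPD1 and HSPE1. From each other list up to 4 called genes with the smallest p are named, with HSPA6, HSPA1A, HSPA1B and HSPA8. In the list of small heat shock genes and HSF regulators, 1 name (HIKESHI) matched through an older symbol.

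The alternatives tried were DESeq2 1.42.0, limma-voom (limma 3.58.1), scaling by median of ratios or by upper quartile, keeping every gene, keeping only genes with 1 CPM in 3 or more libraries, replicate number as a block, removal of each library's trend along GC content and length (natural splines with 5 degrees of freedom, as offsets), both together, each line fitted alone, and leaving out each library in turn or DLD1 controls 2 and 3 together.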

Additional observations from a re-analysis of the deposited data

How the results depend on the processing

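The number of members called in SW480, 12 (beside 12.4% of all genes), was 21 with the GC and length trend removed (28%). It was 21 with the trend removed and a replicate block (27.4%), and 19 with the line fitted alone (30.2%). It ran from 3 to 18 when 1 library was left out (beside 3.83% to 24% of all genes). In DLD1, where edgeR called 0, it was 7 without a filter, 8 by DESeq2, 3 with the GC and length trend removed, 2 with the trend removed and a replicate block, 6 without DLD1 controls 2 and 3, and 0 to 20 when 1 library was left out. Without DLD1 controls 2 and 3 that group has 1 library, which is assumed to vary like the other groups, so each value so obtained rests on it. Of all genes, 2.37% were called in DLD1 without a filter, 3.89% by DESeq2, 3.02% with the trend removed and 2.66% with the block added. When 1 library was left out, the share in DLD1 was 0.0166% to 21%. Without a filter, 6 members were lower and HSPB1 was higher. The 2 members called with the trend removed and a replicate block were HSP90AA1, lower, and HSPB1, higher (edgeR adjusted p 0.0279 and 0.00481). For the difference between lines (0, beside 0.728% of all genes), the number called was 3 with the trend removed (8.02%). It was 3 with the trend removed and a replicate block (7.19%), and 0 to 4 when 1 library was left out (0.05% to 8.35%). The cause of these changes was not tested. Between the control groups the count of 29 (beside 70.8% of all genes) stayed between 24 (65.3%) and 35 (78.2%) under the alternatives run. With a replicate block alone, 11 members were called in SW480 (beside 13.3% of all genes), 0 in DLD1 (1.05%) and 0 for the difference (1.56%). Same-numbered lactate and control libraries had correlations of 0.10, -0.0002 and 0.17 in SW480 and -0.07, 0.06 and 0.12 in DLD1. The labels do not say whether they were handled together, and these values cannot settle it. In each line, only for replicate 3 did both libraries correlate best with their own number. The block gives no value between control groups, and a line fitted alone gives none for the difference or the controls.

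The HSF1 fold change in SW480 (log2 0.012) was -0.030 with the trend removed, -0.028 with the trend removed and a replicate block, and -0.021 to 0.091 when 1 library was left out. That of BAG3 (-0.012) was 0.0053 with median-of-ratios scaling and by DESeq2, and -0.064 to 0.052 when 1 library was left out. The number of all genes called moved by over 1.5 times in both directions. In SW480 (2183) it was 4923 with the trend removed, 4809 with the block added, 4783 with the line fitted alone, 4347 without DLD1 control 2 and 4722 without DLD1 controls 2 and 3. It was 689 without SW480 control 1, 855 without SW480 lactate 2, 1211 without SW480 lactate 3 and 1219 without SW480 control 3. In DLD1 (67) it was 683 by DESeq2, 530 with the trend removed, 467 with the block added, 855 without a filter, 184 with a replicate block, 589 without DLD1 controls 2 and 3, and 1 with the line fitted alone. It was 3791 without DLD1 control 3, 149 without DLD1 control 2, 3 without DLD1 control 1, 7, 12 and 11 without DLD1 lactate 1, 2 and 3, and 30 to 42 without an SW480 library other than control 1. For the difference (128) it was 837 without a filter, 712 by DESeq2, 274 with a replicate block, 1410 with the trend removed, 1263 with the block added and 627 without DLD1 controls 2 and 3. It was 9 to 1508 when 1 library was left out, past 1.5 times for each library but SW480 control 2. With 3 libraries a group, the absence of a call does not show that a level was the same.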

Other observations

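BAG6, which guards tail-anchored membrane proteins, and the prefoldin subunit PFDN6 held 1 and 0 counts over all 12 libraries and were not tested. Both lie on chromosome 6. From BAG6 to PFDN6 (31639028 to 33298401), 46 of 80 protein-coding genes of GENCODE v29 (57.5%) were listed at 0 in all 12 libraries, against 89 of 913 (9.75%) on the rest of the chromosome. How the authors' counting treated this region is not given in the sources used here, so these zeros are not read as absence of RNA.

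HSPD1 and HSPE1 start from opposite strands, and their RefSeq promoter windows share 204 bases. Both windows hold the same E-box CACGTG at chromosome 2, 197500357 to 197500362. In SW480 the HSPD1 level was 1.55-fold lower with lactate and the HSPE1 level, which is uncertain, 2.01-fold lower. By edgeR neither gene was called in DLD1. HSF2, the other member with the E-box, had a log2 fold change in SW480 of 0.15 ± 0.13, not called. The part of the E-box in these levels was not tested. The 3-unit heat shock motif lies in another window of HSPD1, which shares 0 bases with that of HSPE1.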
